A study of Mus musculus with 5 samples.

Results

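The circadian clock genes and their regulators were followed in the colon of mice that had received an agonist of the IL-11 receptor. The set holds 29 genes, chosen for their place in the clock with earlier results of these data known. All 29 were present on the array and among the 32917 features tested. To ask which colonic genes respond to IL-11 signalling, the study compared 2 C57BL/B6 mice labelled Control with 3 C57BL/B6 mice labelled NT-3N. The NT-3N mice, 8 weeks old, received the agonist NT-3N, a modified human IL-11, through a vein, and the colon was taken 3 hr later. The injected mice were wild type, the labels give no other allele or treatment for either group, and each array held whole-colon total RNA. The Control mice were untreated, with no vehicle named, so injection and agonist cannot be told apart. The labels do not give the hour of the day at which any colon was taken, nor an age for the Control mice. The study's methods state that the mice were kept on a daily dark/light cycle.

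The clock is a transcriptional feedback loop that runs in nearly every cell, including those of the gut wall. CLOCK and BMAL1, the protein of Arntl, bind E-boxes and activate the Per, Cry and Nr1d genes; the PER and CRY proteins then inhibit CLOCK and BMAL1. The REV-ERB proteins made from Nr1d1 and Nr1d2 compete with ROR activators at ROR elements and repress Arntl, while DBP, TEF and HLF activate D-boxes that NFIL3 represses. Genes driven through E-boxes or D-boxes and genes driven through ROR elements therefore peak at different times of the day.

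These elements can be read in the promoters of some of the genes described here. RefSeq promoter windows on build GRCm38.p6, from 250 bases before to 50 bases after the start of transcription, were held for 23 of the 29 genes, in 31 windows. No window was held for Bhlhe40, Btrc, Csnk1a1, Csnk1d, Per2 and Wee1. The 250 bases before the start are shown 5′ to 3′ on the strand of the gene for 5 genes that carry one of the elements, with the matched letters in capitals. The letters searched, on both strands, were CACGTG for the E-box, CACGTT for the E-prime-box, TTANGTAA for the D-box and TAGGTCA for the core of the ROR element.

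Ciart, chr3:95882229-95882478, minus strand: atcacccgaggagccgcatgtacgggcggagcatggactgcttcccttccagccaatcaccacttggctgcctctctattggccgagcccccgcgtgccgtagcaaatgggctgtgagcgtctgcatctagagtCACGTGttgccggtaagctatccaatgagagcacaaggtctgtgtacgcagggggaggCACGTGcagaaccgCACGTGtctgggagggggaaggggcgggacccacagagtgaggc
Nr1d1, chr11:98775378-98775627, minus strand: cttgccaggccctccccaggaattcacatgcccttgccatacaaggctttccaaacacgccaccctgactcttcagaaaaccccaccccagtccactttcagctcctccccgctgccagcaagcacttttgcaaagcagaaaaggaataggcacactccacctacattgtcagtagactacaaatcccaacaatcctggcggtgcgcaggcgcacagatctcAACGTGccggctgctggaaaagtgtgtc
Per3, chr4:151044666-151044915, minus strand: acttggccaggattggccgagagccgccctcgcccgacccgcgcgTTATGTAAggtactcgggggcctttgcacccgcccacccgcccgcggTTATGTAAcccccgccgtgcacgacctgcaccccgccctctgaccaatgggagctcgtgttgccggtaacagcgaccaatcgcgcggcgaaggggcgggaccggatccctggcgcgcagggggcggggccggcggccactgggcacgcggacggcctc
Cry1, chr10:85185055-85185304, minus strand: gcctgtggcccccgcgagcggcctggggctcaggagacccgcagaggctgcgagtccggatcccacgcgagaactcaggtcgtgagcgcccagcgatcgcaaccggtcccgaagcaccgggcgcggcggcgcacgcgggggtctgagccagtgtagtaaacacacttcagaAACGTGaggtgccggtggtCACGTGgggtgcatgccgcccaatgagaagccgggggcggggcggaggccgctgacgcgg
Nfil3, chr13:52981040-52981289, minus strand: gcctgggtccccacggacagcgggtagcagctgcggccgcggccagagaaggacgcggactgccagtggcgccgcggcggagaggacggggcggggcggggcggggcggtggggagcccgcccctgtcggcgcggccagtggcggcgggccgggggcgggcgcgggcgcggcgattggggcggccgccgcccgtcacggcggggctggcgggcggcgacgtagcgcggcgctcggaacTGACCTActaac

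The Ciart promoter held 3 E-boxes, which began 116, 58 and 44 bases before the start. Nr1d1 held an E-prime-box 28 bases before its start, read on the opposite strand. Per3 held 2 D-boxes, 205 and 158 bases before the start. Cry1 held both an E-box and an E-prime-box, 60 and 79 bases before its start, the latter read on the opposite strand, and Nfil3 a ROR element core 12 bases before its start, read on the opposite strand. Among the 31 windows of the set, an E-box was found in 7 windows (22.6%) of 6 genes, against 7.15% of 32817 RefSeq promoters. The other members with an E-box were Per1, Tef, Sirt1 and Bhlhe41. E-prime-boxes lay in 3 windows (9.68%, with Cry2 the remaining gene) against 4.69% of promoters, D-boxes in 2 windows (6.45%, with Timeless the other gene) against 2.32%, and ROR element cores in 2 windows (6.45%, the other in Arntl, 30 bases after its start) against 2.61%. The windows of Dbp and Nr1d2 were among the 18 that held none of these letters. These matches describe the letters in the windows; no binding was measured.

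Levels are given as log2 of the processed spot signal after quantile normalization, so that a difference of 1 is a 2-fold difference, and the brightest tested probe stands for each gene. Of the 29 genes, 28 lay well above background on all 5 arrays. Bhlhe41 was above background on 1 of 2 Control arrays and on all 3 NT-3N arrays. By these probes the clock was measurable in the colon: the 29 mean Control levels ran from 3.99 for Bhlhe41 to 14.38 for Tef. The whole-colon label fitted the markers, since all 8 epithelial and all 7 smooth muscle markers were well above background on all arrays. Between 70.6% and 72.9% of 56605 probes were above background on an array, no spot was saturated, and features correlated at 0.980 to 0.992 between arrays. Over all features Control 1 was the array least like the others, at 0.980 to 0.984. Control 2 correlated with the NT-3N arrays at 0.986 to 0.989. With 5 arrays the precision of each value is limited, and in whole tissue fewer cells of a type and less RNA per cell cannot be told apart.

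None of the 29 genes differed between NT-3N and Control at an adjusted p under 0.05 in limma, against 0.143% of all features called. The lowest adjusted p among them was 0.30, for Timeless. The local-pooled-error test that the study's methods name called 3 (Nr1d1, Ciart and Dbp), where it called 1.16% of all features. Its spread is pooled over features of like level, so a gene's own gap between the Control arrays does not enter. At an unadjusted p under 0.05 the local-pooled-error test gave 7 of the 29, against 4.15% of all features. At an unadjusted p under 0.05 there were 11 of 29 (37.9%), where the share of all features was 9.62%. Of these, 7 were higher in NT-3N (Nr1d1, Ciart, Dbp, Nr1d2, Per3, Timeless and Sirt1), with 4.95% of all features in that direction. The 4 that were lower were Cry1, Per2, Hlf and Nampt, with 4.67% of all features. Their adjusted p-values ran from 0.30 to 0.51. The arrays of the groups did not overlap for 16 of the 29 genes (55.2%), against 28.4% of all features. Of these 16 genes, 9 were higher (all features 13.5%) and 7 lower (all features 14.8%). The median log2 fold change of the set was 0.072, against -0.019 over all features, and the median size of the change was 0.31 against 0.15. Since 5 arrays can be split in 10 ways, the exact permutation p of a single gene, two-sided, is at least 0.1.

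**Figure D1:**
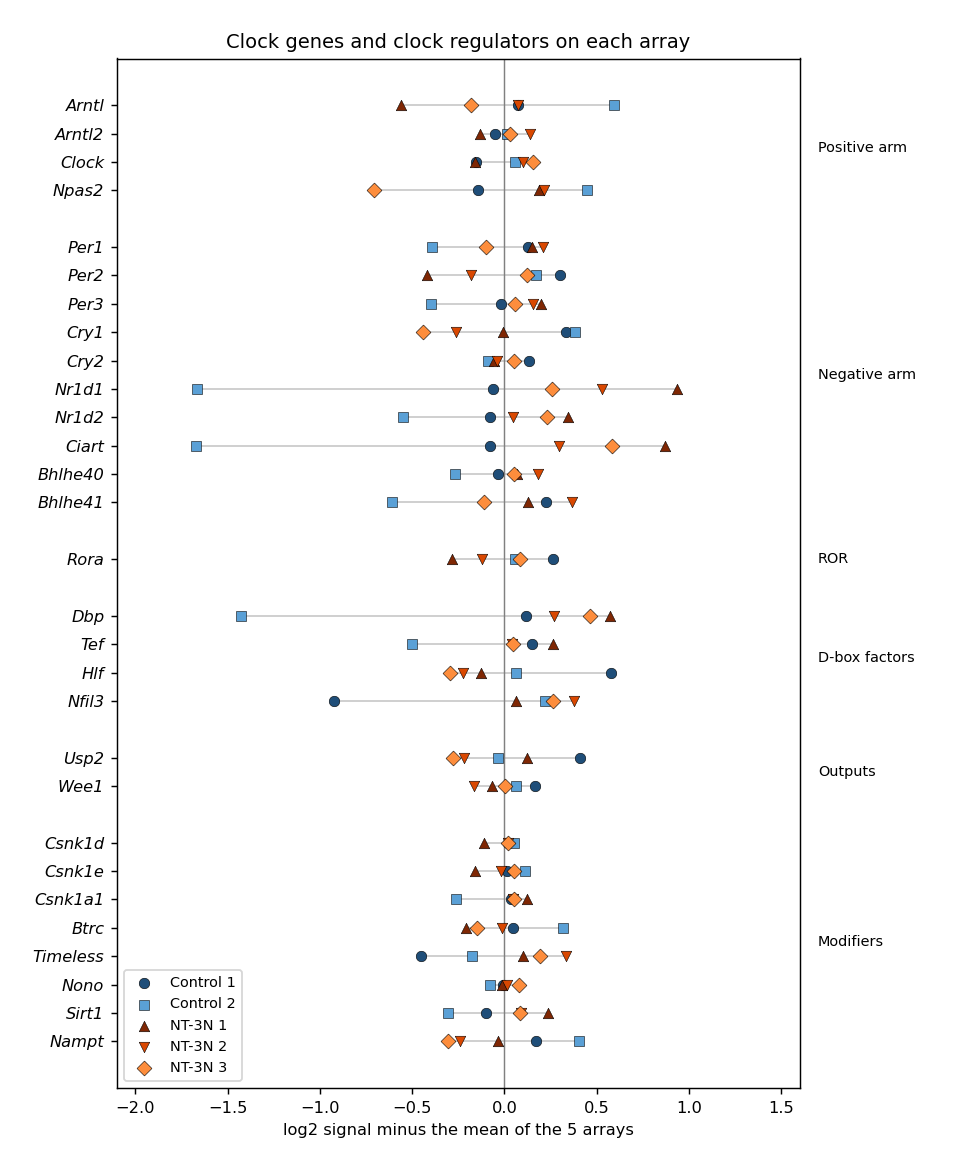
The log2 signal of each gene on each of the 5 arrays, as its distance from the gene's mean over the 5 arrays (horizontal axis, log2 units), with genes grouped by role and 1 symbol per array. Control 2 lies farthest to the left for Nr1d1, Ciart and Dbp, whereas Control 1 does so for Nfil3.

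In the positive arm, whose 4 genes encode the activators that bind E-boxes, no gene reached an unadjusted p under 0.05. Arntl, which encodes BMAL1, stood at 8.84 and 9.36 in Control replicates 1 and 2 and at 8.21, 8.84 and 8.58 in NT-3N replicates 1 to 3. The groups did not overlap, although Control 1 and NT-3N 2 were almost level. On the log2 scale NT-3N differed by -0.56 ± 0.23 (SE; limma adjusted p = 0.52). Clock, its partner, stood at 11.23 and 11.43 in Control and at 11.22, 11.48 and 11.53 in NT-3N, so that the groups overlapped with a difference of 0.080 ± 0.13 (SE). Npas2, which can replace CLOCK, was read at 5.24 and 5.83 in Control and at 5.57, 5.59 and 4.67 in NT-3N. It spread over 0.92 within NT-3N, wider than its log2 fold change of -0.25. Arntl2, the paralogue of Arntl, differed by 0.032. The median log2 fold change of the arm was -0.11, and it was 0.052 without Control 2 and 0.021 without NT-3N 3. With all 5 arrays it was 0.00052 after normexp background correction and 0.041 in the local-pooled-error test, so the arm had no settled direction. The replicate block gave 0.021 again, since NT-3N 3 has no Control of its number and drops out of the group difference.

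The negative arm, the repressors of the loop, held 2 of the 3 widest differences of the set, those of Nr1d1 and Ciart; the other was that of Dbp. Its median log2 fold change over 10 genes was 0.29, with 7 higher and 3 lower in NT-3N. Without Control 2 the median was 0.047, and without Control 1 it was 0.50.

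Nr1d1, which encodes REV-ERB alpha, was read at 9.75 and 8.14 in Control and at 10.74, 10.34 and 10.07 in NT-3N. All 3 NT-3N arrays were above both Control arrays, but the Control arrays differed from each other by 1.61, more than the group means did. The means were 8.94 ± 1.14 (SD, n = 2) and 10.38 ± 0.34 (SD, n = 3), which differed by 1.44 ± 0.46 (SE), or 2.71-fold (limma adjusted p = 0.41). Ciart, whose product CHRONO represses CLOCK and BMAL1, followed the same order of Control arrays. It stood at 8.53 and 6.94 in Control and at 9.48, 8.90 and 9.19 in NT-3N, a difference of 1.46 ± 0.45 (SE; adjusted p = 0.40). Nr1d2, the gene of REV-ERB beta, stood at 11.22 and 10.75 in Control and at 11.65, 11.35 and 11.53 in NT-3N. Its groups did not overlap and its log2 fold change was 0.52 ± 0.16 (SE).

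The 3 Per genes did not share a direction. Per1 was read at 13.44 and 12.92 in Control and at 13.46, 13.52 and 13.21 in NT-3N, with NT-3N 3 between the Control arrays and a log2 fold change of 0.22 ± 0.17 (SE). Per3 stood at 9.85 and 9.47 in Control and at 10.06, 10.02 and 9.92 in NT-3N, higher on every NT-3N array, with a log2 fold change of 0.34 ± 0.14 (SE). Per2 was lower instead. It stood at 12.56 and 12.43 in Control and at 11.84, 12.07 and 12.38 in NT-3N, where replicate 3 lay close under Control 2, and its log2 fold change was -0.40 ± 0.16 (SE).

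The cryptochrome genes, which encode the partners of PER, differed from each other. Cry1 was read at 7.91 and 7.96 in Control and at 7.57, 7.32 and 7.14 in NT-3N. Here the Control arrays were close together and all NT-3N arrays were lower, by a log2 difference of -0.59 ± 0.16 (SE), or 1.51-fold (adjusted p = 0.34). Cry2 was read at 12.70 and 12.48 in Control and at 12.51, 12.53 and 12.62 in NT-3N, all 3 of them between the Control arrays, and its log2 fold change of -0.037 turned to 0.0015 when arrays were scaled to their medians. Of the basic helix-loop-helix repressors, Bhlhe40 was higher on every NT-3N array, by 0.25 ± 0.11 (SE), and Bhlhe41 overlapped at a log2 fold change of 0.32, which was 0.064 after normexp background correction. Rora, the member that activates ROR elements, overlapped at -0.27 on its brightest probe. Its further probes were lower without overlap, by -0.30 and -0.79, the latter above background on 1 of 3 NT-3N arrays, and the mean of its probes differed by -0.45 (adjusted p = 0.35), at an unadjusted p under 0.05.

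**Figure D2:**
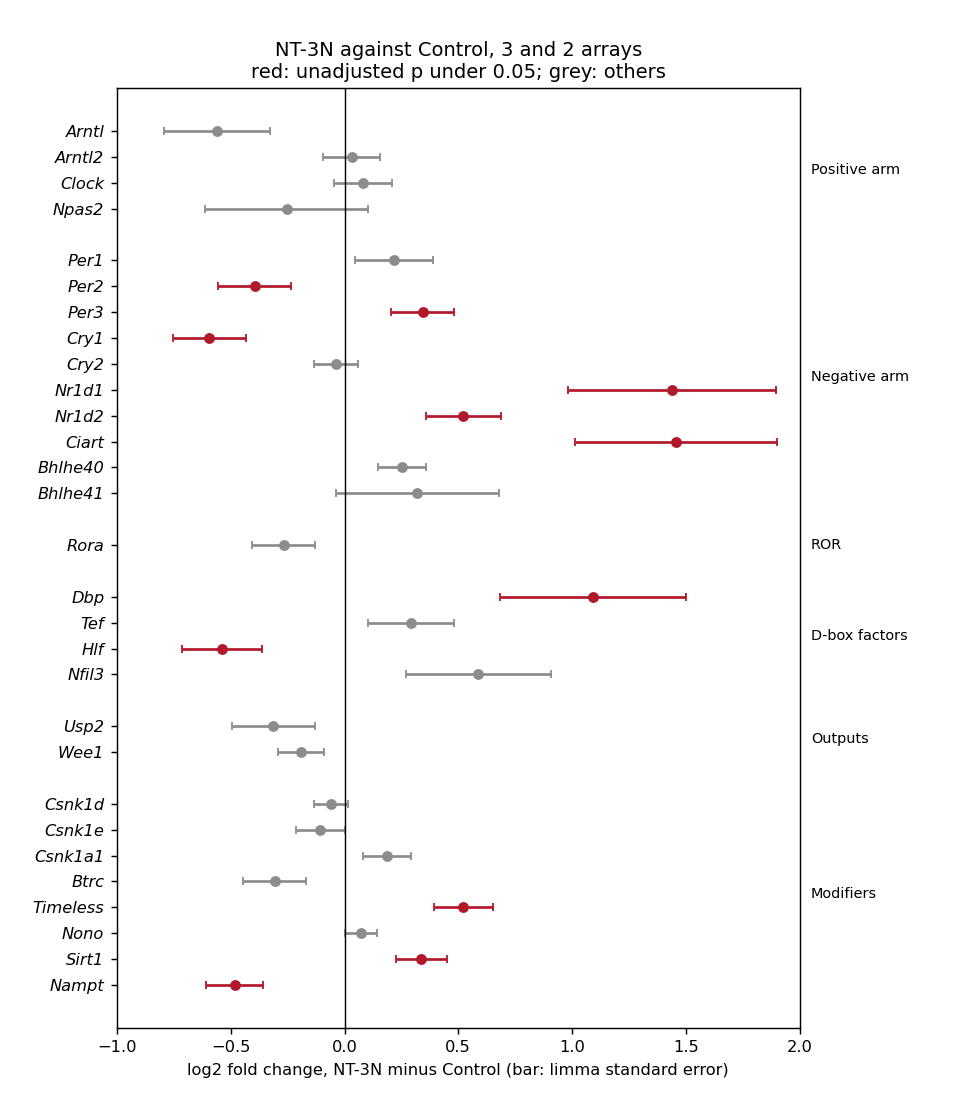
The log2 fold change of NT-3N against Control for each of the 29 genes (horizontal axis, log2 units; 3 and 2 arrays), with the limma standard error as bars, and red for the 11 genes at an unadjusted p under 0.05. Nr1d1, Ciart and Dbp lie farthest to the right at 1.44, 1.46 and 1.09, and Cry1 farthest to the left at -0.59.

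Among the genes of the D-box proteins, Dbp, a classical output of CLOCK and BMAL1, stood at 14.04 and 12.50 in Control and at 14.50, 14.19 and 14.38 in NT-3N. Control 2 was far below the other 4 arrays, which lay between 14.04 and 14.50. The difference was 1.09 ± 0.41 (SE), or 2.13-fold (adjusted p = 0.48). Hlf, of the same protein family, was lower in NT-3N. It was read at 8.81 and 8.29 in Control and at 8.10, 8.01 and 7.93 in NT-3N, with no overlap and a log2 fold change of -0.54 ± 0.18 (SE). Tef stood at 14.70 and 14.05 in Control and at 14.81, 14.59 and 14.60 in NT-3N, and overlapped. Nfil3, the repressor at D-boxes and itself a cytokine-responsive gene in several immune cells, was read at 8.65 and 9.79 in Control and at 9.64, 9.95 and 9.84 in NT-3N. Here Control 1, not Control 2, stood apart, and the groups differed by 0.59 ± 0.32 (SE).

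Of the modifiers of the clock, 3 were at an unadjusted p under 0.05. Timeless, a homologue of a fly clock gene that works at replication forks in mammals, was read at 9.45 and 9.73 in Control and at 10.01, 10.24 and 10.10 in NT-3N. It was higher by 0.52 ± 0.13 (SE). Sirt1, an NAD-dependent deacetylase that binds CLOCK, stood at 9.98 and 9.77 in Control and at 10.31, 10.16 and 10.16 in NT-3N, higher by 0.34 ± 0.11 (SE). Nampt, which encodes the rate-limiting enzyme of NAD salvage and is itself a CLOCK target, was lower instead. It was read at 10.95 and 11.18 in Control and at 10.74, 10.54 and 10.47 in NT-3N, a log2 fold change of -0.48 ± 0.13 (SE; adjusted p = 0.32). These 3 genes did not overlap between groups.

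The casein kinase genes, whose products phosphorylate PER, differed by -0.059 for Csnk1d and -0.11 for Csnk1e, both with overlap, whereas Csnk1a1 was higher by 0.19 ± 0.11 (SE) without overlap. Btrc, which encodes an F-box protein that marks PER for degradation, differed by -0.31 without overlap, and Nono, a PER-binding protein, by 0.072. Of the output genes, Wee1, a kinase of the G2/M checkpoint, was lower by 0.19 ± 0.10 (SE) and its arrays did not overlap. Usp2, a deubiquitinase, differed by -0.31 ± 0.18 (SE) on its dimmer probe. The brighter Usp2 probe was not tested because its spot on Control 1 was marked as an outlier. It read 11.99 on Control 2 and 12.41, 11.92 and 11.89 in NT-3N. The deposited log2 values with that probe, which keep the marked spot, gave a change of 0.48, so the direction of Usp2 was not settled. The 20 genes with several tested probes had 27 further probes, of which 25 gave the sign of the probe used; the others, of Csnk1a1 and Csnk1d, gave -0.0052 and 0.031.

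The Control arrays themselves stood apart along the clock. Nr1d1 was 3.05-fold higher in Control 1 than in Control 2, Ciart 3.01-fold and Dbp 2.92-fold. Only 1.32%, 1.34% and 1.44% of all features had a wider gap between the Control arrays than these genes. Nfil3 ran the other way, 2.21-fold lower in Control 1, with 2.56% of features wider. A gap over 1 on the log2 scale was found for these 4 of 29 genes (13.8%), against 3.40% of all features, and the median gap was 0.28 over the set and 0.16 over all features.

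The gap ran in opposite directions in the lists of genes known to be driven through different elements. All 12 genes listed as driven through E-boxes or D-boxes (Per1, Per2, Per3, Nr1d1, Nr1d2, Dbp, Tef, Hlf, Ciart, Usp2, Wee1 and Bhlhe41) were higher in Control 1 than in Control 2. All 5 genes listed as driven through ROR elements (Arntl, Clock, Npas2, Nfil3 and Cry1) were lower, Cry1 by only 0.049. Cry1, whose promoter also holds an E-box and an E-prime-box, was counted on the ROR-element list alone. Usp2 was counted on its dimmer probe, since the spot of the brighter one on Control 1 was marked as an outlier. Nampt and Timeless, on neither list although the former is a CLOCK target and the latter holds a D-box, were lower in Control 1 by 0.23 and 0.28. Of all features, 52.2% were higher in Control 1. Control 2 gave the lowest of the 5 values for 8 of the 12 E-box and D-box genes (66.7%), against 19.2% of all features. The median gap was 0.52 in both lists. With 1 mouse per array and 2 Control mice, this comparison of single arrays has no test. Both lists were drawn up with earlier results of these data known.

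**Figure D3:**
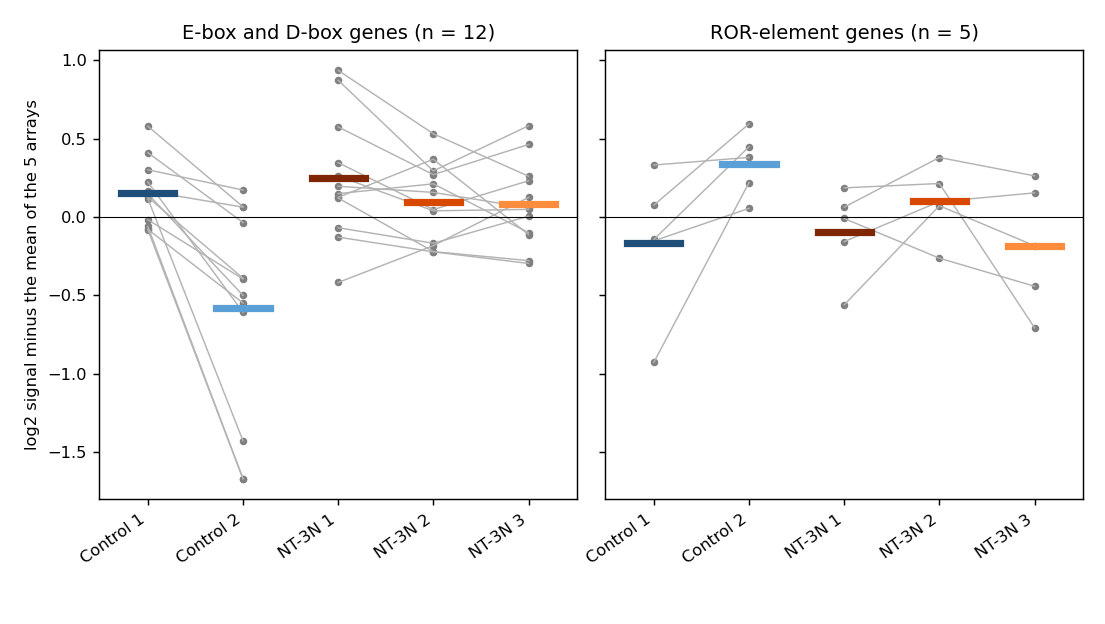
The log2 signal minus the gene's mean over 5 arrays (vertical axis, log2 units) for the 12 E-box and D-box genes and the 5 ROR-element genes, array by array. Points are genes, thin lines join a gene's values within a group, and bars are the mean of the list, which is -0.58 on Control 2 on the left and 0.34 on the right.

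Expressed as the mean distance from each gene's average over the 5 arrays, the E-box and D-box genes stood at 0.15 in Control 1, -0.58 in Control 2 and 0.25, 0.094 and 0.083 in NT-3N. The ROR-element genes stood at -0.16 and 0.34 in Control and at -0.095, 0.10 and -0.18 in NT-3N. On the E-box and D-box list, Control 1 lay nearer to each NT-3N array than Control 2 did; on the ROR-element list it did so for NT-3N 1 and 3 and not for NT-3N 2. The median log2 fold change was 0.31 for the E-box and D-box genes and -0.036 without Control 2. On all 5 arrays, 8 genes of that list were higher in NT-3N and 4 (Per2, Hlf, Usp2 and Wee1) lower. For the ROR-element genes it was -0.25 and 0.041 without Control 2. In the local-pooled-error test, which takes differences of group medians rather than means, it was 0.033. With the replicate number as a block, where NT-3N 3 drops out of the group difference, it was 0.019.

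Set against each Control array apart, the genes fell into different patterns. Against Control 1, the mean of NT-3N was 1.55-fold higher for Nr1d1 and 1.58-fold higher for Ciart; against Control 2 the ratios were 4.74 and 4.76. Dbp was 1.25-fold higher against Control 1 and 3.64-fold higher against Control 2. Per1, Tef and Bhlhe41 were higher than Control 2, by 0.48, 0.62 and 0.74 on the log2 scale, but not higher than Control 1, at -0.039, -0.032 and -0.096. For Nfil3 the log2 difference was 1.16 against Control 1 and 0.015 against Control 2. Cry1 was almost the same against both, at -0.57 and -0.62, and so was Per2, at -0.46 and -0.33. Timeless differed by 0.66 and 0.38, Nampt by -0.37 and -0.60, and Hlf by -0.79 and -0.28. With Control 2 left out, 6 of the 29 genes were at an unadjusted p under 0.05 in limma (all features 6.08%): Ciart, Timeless and Nfil3 higher, and Cry1, Hlf and Usp2 lower. Without Control 1 there were 14 (all features 7.15%), and Dbp reached an adjusted p of 0.042 (all features under 0.05, 0.0942%). In these fits the lone Control array is assumed to vary like the other group.

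**Figure D4:**
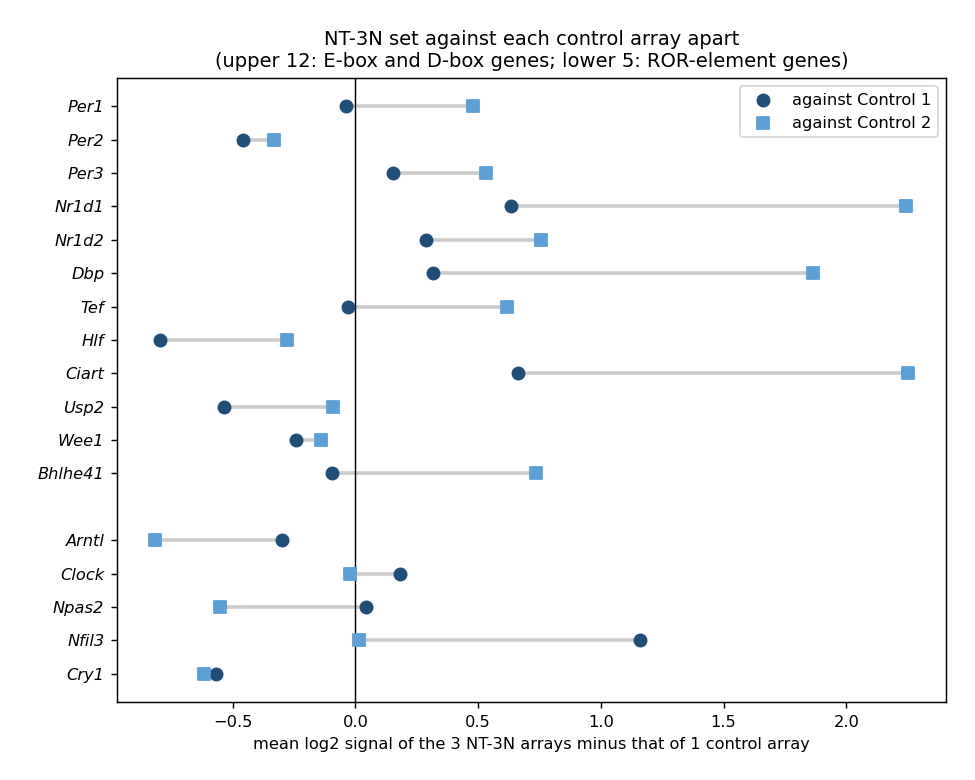
The mean log2 signal of the 3 NT-3N arrays minus that of 1 Control array (horizontal axis, log2 units), with circles for Control 1 and squares for Control 2, for the 12 E-box and D-box genes above and the 5 ROR-element genes below. The pairs are far apart for Nr1d1, Ciart, Dbp and Nfil3 and close together for Cry1 and Per2.

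Markers of other cells differed between the Control arrays and between the groups. Of 7 B cell markers, 6 were lower in Control 2 than in Control 1 and 1, Ms4a1, was higher; the mean log2 level of the list was 8.21 and 6.71 in Control and 8.49 to 8.79 in NT-3N. All 5 fat markers were lower in Control 2 than in Control 1. The mean of the list was 9.62 and 7.59 in Control and 9.34, 8.59 and 7.10 in NT-3N. Ms4a1 was also higher in NT-3N, at 4.95 and 6.53 in Control and at 9.54, 9.13 and 9.51 in NT-3N (adjusted p = 0.059). Of 5 neutrophil markers listed, 4 were tested, and Cxcr2 was not. S100a8 and S100a9 were not well above background on either Control array and were above it on all 3 NT-3N arrays. There S100a8 read 6.21, 4.28 and 5.15 and S100a9 8.58, 6.23 and 6.65. Both passed the filter through the NT-3N arrays alone, so no test is drawn from them. Both remaining neutrophil markers, Csf3r and Mmp8, overlapped. Csf3r differed by -0.16 and Mmp8, above background on 1 of 2 Control arrays, by 0.50. No mean of the neutrophil list is given, since it would include S100a8 and S100a9. Smooth muscle markers were level between the Control arrays, at 15.43 and 15.46, and all 7 were lower in NT-3N, at 14.88 to 15.22, 3 of them (Myh11, Tagln and Smtn) at an unadjusted p under 0.05, against 4.67% of all features in that direction. Epithelial markers ran from 15.65 to 15.85 over the 5 arrays. The part of these cell types in the differences between clock genes was not tested.

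The other genes of the clock pathway had a median size of change of 0.10 on the log2 scale, against 0.15 over all features. Of 40 symbols listed for F-box proteins, kinases, phosphatases, coregulators, inputs and other factors of the clock, 36 were tested. None passed an adjusted p of 0.05 in limma, and 3 were at an unadjusted p under 0.05 (8.33%, all features 9.62%), of which 2 are described here. Tipin, the binding partner of Timeless at replication forks, was higher by 0.30, with 10.52 and 10.67 in Control and 10.79, 10.94 and 10.97 in NT-3N. Ppp1cc, a subunit of the phosphatase that acts on PER, was higher by 0.24. The median gap between the Control arrays was 0.090 for these 36 genes, against 0.28 in the set.

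Further lists hold genes that respond to signals known to reset clocks, whose part in the differences between clock genes was not tested. All 7 immediate early genes had a higher mean in NT-3N, as did 15263 of 32917 features, and 2 of them were at an unadjusted p under 0.05 (all features higher, 4.95%): Egr1 by 1.87 (8.66 and 9.32 in Control; 10.49, 11.50 and 10.59 in NT-3N) and Junb by 0.65. None of the 7 reached an adjusted p under 0.05. The median gap between the Control arrays was 0.23 for this list. Of 8 glucocorticoid-responsive genes, 4 were at an unadjusted p under 0.05 (all features 9.62%) and they did not share a direction. Mt2, a metallothionein, was higher by 1.23 and Dusp1, a phosphatase of MAP kinases, by 0.55, whereas Tsc22d3, the glucocorticoid-induced leucine zipper, was lower by 0.46 and Pdk4, a kinase of pyruvate dehydrogenase, by 0.68. Of 5 other output genes of the clock, Tsc22d3 and Tspan4, a tetraspanin, were at that threshold (2 of 5, all features 9.62%), and Tspan4 was higher by 1.29 (11.69 and 11.27 in Control; 12.51, 12.80 and 13.01 in NT-3N; adjusted p = 0.091).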

How the data were processed

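RNA of whole colon was hybridised to single-colour Agilent SurePrint G3 mouse arrays, 1 array for each of 2 Control and 3 NT-3N mice; the 5 arrays shared 1 slide and 1 scan. The authors extracted spots with Agilent Feature Extraction 11.0.1.1 and deposited spot intensity values (processed signal, background-subtracted, not scaled between arrays). They also deposited a table of log2 values, quantile-normalized, which served as an alternative.

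Control spots and outlier spots were left out. Processed signal was log2-transformed, averaged per probe and quantile-normalized. Probes well above background on at least 2 arrays, with values on both Control and at least 2 NT-3N arrays, were kept. Probes were named by unversioned accession through RefSeq (GRCm38.p6), which named 32994 of 56605. Of the 32917 features, 17945 had a symbol. The array headers refer to another build, so coordinates are given for RefSeq promoters alone.

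NT-3N was set against Control with limma 3.58.1 under R 4.3.3 (lmFit, eBayes with intensity trend, two-sided, Benjamini-Hochberg over all features). The local-pooled-error test of the study's methods was an alternative, as were scaling, background correction, filters, variance models, weights, probe choice, the replicate block and leaving out arrays. The tests were checked on simulated data. The numbering in the labels does not say that mice were paired. The limma p-values rest on the spread of each gene between these mice, moderated over features. Those of the local-pooled-error test rest on a spread pooled over features of like level, not on that of the gene itself. The differences it gives are between group medians, where limma uses means.

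The clock genes and the lists were chosen with earlier results of these data known. Array values are given for genes at an unadjusted p under 0.05 and for 11 core genes whatever their p. Those of Tef and Nfil3, which are neither, are given as well. Genes outside the set are named if they are on a list and at an unadjusted p under 0.05, or where a result turns on them. The brighter Usp2 probe and the output and modifier genes named without array values were chosen after values were seen. Some listed genes that met this rule are not reported here.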

Additional observations from a re-analysis of the deposited data

How the results depend on the processing

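The number of clock genes at an adjusted p under 0.05 was 0 in limma under every alternative on all 5 arrays and 0 to 1 with single arrays left out. The local-pooled-error test called 3 of the 29 (Nr1d1, Ciart and Dbp, at adjusted p = 0.0011, 0.019 and 5.5e-07), with 383 features called in all. At an unadjusted p under 0.05 the local-pooled-error test gave 7 genes in place of 11, and leaving out single arrays gave 6 (without Control 2) to 14 (without Control 1). The number without overlap was 16 (all features 28.4%). On all 5 arrays it lay between 14 with the mean of probes and 17 with 75th percentile scaling. Leaving out an array cannot lower this number, so no count is given for single arrays left out. The median log2 fold change of the positive arm turned from -0.11 to 0.00052 with normexp background correction and to 0.041 with the local-pooled-error test. That of the ROR-element genes turned from -0.25 to 0.033 with the latter, whose differences are of group medians, not means. With single arrays left out, the medians ran from -0.29 to 0.052 for the positive arm, 0.047 to 0.50 for the negative arm, -0.55 to 0.041 for the ROR-element genes and -0.036 to 0.57 for the E-box and D-box genes; without NT-3N 3 the positive arm stood at 0.021 and the ROR-element genes at 0.019. Of the other pathway genes, 1 was called with array weights and 1 with the local-pooled-error test.

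With the replicate number as a block, 11 clock genes were at an unadjusted p under 0.05 in limma (all features 7.56%), and no feature passed the adjusted threshold. The positive arm and the ROR-element genes then had medians of 0.021 and 0.019, the negative arm 0.35 and the E-box and D-box genes 0.35. Over the limma alternatives on all 5 arrays, this count ran from 8 without an intensity trend (all features 9.34%) to 13 with array weights (all features 14.6%). Same-numbered mice deviated together at correlations of 0.13 and 0.036, over only 2 pairs, and share a number only.

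Over 29 genes and 17 alternatives, 13 of 491 values changed sign, in 8 genes. Cry2 turned to 0.0015 with median scaling and ran from -0.15 to 0.073 with single arrays left out, the latter without Control 1, and Usp2 to 0.48 in the deposited log2 values. Npas2 turned to 0.033 with the local-pooled-error test, 0.041 without Control 2 and 0.047 without NT-3N 3. The replicate block gives this last estimate again by its design, so the 13 values hold it under both settings. Arntl2 turned to -0.00061 without Control 1 and to -0.032 without NT-3N 2, with up to 0.10 without NT-3N 1, and Clock ran from -0.024 without Control 1 to 0.18 without Control 2. Without Control 2, Per1 turned to -0.039, Bhlhe41 to -0.096 and Tef to -0.032, against 0.48, 0.74 and 0.62 without Control 1. Beyond the arrays left out, the cause was not tested. Slide and scan as a block was not run, since the arrays shared both. The dim Bhlhe41 probe limits its value: its signal was above background on 1 of 2 Control arrays.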
